A study of Homo sapiens with 6 samples.

Results

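The AP-1 genes JUN, JUNB, JUND, FOS, FOSB, FOSL1 and FOSL2 and the immediate early gene EGR1 were followed in human ovarian cancer cells with altered Hic-5, the product of TGFB1I1. All array probes whose gene name in the scanner files is one of these 8 genes were taken, which gave 13 of the 41000 probes of the array. JUN, JUND, FOS, FOSB and EGR1 have 1 probe each, JUNB and FOSL1 have 2 each, and FOSL2 has 4. Only the probe of JUN is printed many times on each array, as 10 spots.

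RNA of 5 cell populations was compared on 6 Agilent Whole Human Genome arrays, each of which reads 1 RNA in Cy3 and another in Cy5. In SKOV3, an ovarian adenocarcinoma line, the clones sh-S1 and sh-S2 carried a Hic-5 shRNA in the lentiviral vector pLKO.1-puro and were selected with puromycin, and the Ctrl clone carried a scramble sequence in the same vector. In A2780s, another ovarian cancer line, the pCMV-Hic-5 clone was stably transfected with Hic-5 cDNA (Myc-DDK-tagged) in the vector pCMV6 under neomycin, and its Ctrl carried the empty pCMV6. All cells grew as adherent cultures in RPMI medium with fetal calf serum. Each RNA came from a single clone, so that a difference between clones and an effect of Hic-5 cannot be told apart. Every clone was hybridized against its Ctrl on 2 arrays with the dyes exchanged, which count as 1 replicate. This left 2 replicates in SKOV3, which share 1 Ctrl RNA, and a single replicate in A2780s.

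AP-1 is a dimer of basic leucine zipper proteins. JUN proteins pair with each other or with FOS proteins, while FOS proteins need a JUN partner to bind the sequence TGACTCA or the related element TGACGTCA. Many of these genes are immediate early genes, which growth factors and stress switch on through MAP kinases without new protein synthesis, and JUN also acts on its own promoter. EGR1 is a zinc finger factor induced through serum response factor at CArG boxes in its promoter. In carcinoma cells AP-1 is known for its action on genes of invasion, such as matrix metalloproteinases and the urokinase system.

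The targeted gene did not follow the labels in SKOV3. The TGFB1I1 probe had log2 ratios over Ctrl of -0.16 and 0.12 in the RNA labelled sh-S1 and of -0.12 and 0.28 in that labelled sh-S2, and these are called the sh-labelled RNAs here. Its mean was 0.03 ± 0.07 (SD, n = 2 clones; limma adjusted p = 0.855). In A2780s it was higher in pCMV-Hic-5 on both arrays, by 4.05 and 2.60. Its log2 level was 8.23 in the SKOV3 Ctrl and 12.8 in the A2780s Ctrl, whose channels read 11.8 and 13.7. The paper's Western blot of the cell lines gave the other order, with strong Hic-5 in SKOV3 and rather low Hic-5 in A2780s. That blot measured protein, and these levels are of RNA. The authors checked Hic-5 in the sh clones by PCR of mRNA and by Western blot, which are not part of these data. Over 23728 probes, the log2 levels of sh-S1 correlated with r = 0.948 with the SKOV3 Ctrl and 0.941 with the A2780s Ctrl, and those of sh-S2 with 0.943 and 0.951, whereas the Ctrl RNAs correlated with 0.871. The probes share arrays within a line and slides differ between lines, so these values are descriptions. Markers of ovarian carcinoma lines (12 genes, led by keratins, PAX8 and ERBB2) summed to a log2 level of 16.3 in the SKOV3 Ctrl, 13.6 in each of the sh-labelled RNAs, and 12.4 in both A2780s RNAs. The sum follows its brightest genes, and KRT7, KRT8, KRT18, KRT19, PAX8, ERBB2 and MECOM were called lower in the sh-labelled RNAs. Mean log2 ratios there were 0.41 for WFDC2, from -0.44 to 1.13 by array, 0.06 for MUC16 and -0.02 for WT1. Of this list, EPCAM and MSLN were not well above background on every array in any SKOV3 RNA. Fibroblast markers (6 genes) summed to 10.68 in the SKOV3 Ctrl, 13.6 in sh-S1, 12.9 in sh-S2, 13.2 in the A2780s Ctrl and 13.0 in pCMV-Hic-5. COL3A1 carried that list, at 9.43, 13.5, 12.7, 13.0 and 12.9 in the same order. Leukocyte markers (6 genes) lay between 10.46 and 10.75 and endothelial markers (4 genes) between 9.5 and 9.86 in the 5 RNAs. The part of these differences in the results below was not tested. In RNA from whole cultures, fewer cells of a type and less RNA per cell cannot be told apart.

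The probe of JUN reads the end of its reading frame, at chr1:59247729-59247788 (hg19, minus strand). Its first 42 bases are shown because the largest change of the family was measured there, with the stop codon in capitals.
JUN probe A_23_P201538: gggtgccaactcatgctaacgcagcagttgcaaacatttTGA
Probes of JUNB, FOSL1 and FOSL2 that lie wholly in coding sequence are also shown. That of JUNB in SKOV3 and that of FOSL1 in both lines were too dim to enter. That of FOSL2 read differently in SKOV3 from other probes of its gene. The JUNB probe is at chr19:12902998-12903057 (plus strand), the FOSL1 probe, within the leucine zipper, at chr11:65660706-65660765 (minus strand), and the FOSL2 probe at chr2:28635147-28635206 (plus strand), all in hg19.
JUNB probe A_24_P241815: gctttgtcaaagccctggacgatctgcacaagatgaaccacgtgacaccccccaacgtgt
FOSL1 probe A_23_P322519: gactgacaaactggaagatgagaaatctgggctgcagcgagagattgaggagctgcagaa
FOSL2 probe A_23_P345581: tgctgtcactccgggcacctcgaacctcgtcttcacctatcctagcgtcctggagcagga

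Promoters from RefSeq (GRCh38.p14), from 250 bases before to 50 after the start site, were at hand for 7 of the 8 genes, and are shown for JUN and EGR1, the genes with the largest rise and fall in A2780s. Capitals mark matches on either strand to 5 motifs, the AP-1 site TGANTCA, the elements TGACGTCA and TGACATCA, the MEF2 site and the CArG box. The stretch of JUN is chr1:58784048-58784147 (minus strand), the 100 bases before its start site.
JUN promoter: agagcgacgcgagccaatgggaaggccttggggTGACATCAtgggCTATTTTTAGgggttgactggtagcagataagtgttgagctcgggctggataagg
The stretch of EGR1 is chr5:138465339-138465478 (plus strand), the 140 bases before its start site.
EGR1 promoter: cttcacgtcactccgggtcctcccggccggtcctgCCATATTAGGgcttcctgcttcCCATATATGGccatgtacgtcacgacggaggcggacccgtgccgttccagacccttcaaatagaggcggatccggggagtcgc
In JUN, TGACATCA starts at -67 and the MEF2 site at -55 from the start site. These letters occur in 2.61% and 0.142% of 35116 promoters of the same length. EGR1 holds CArG boxes starting at -105 and -83, a motif present in 1.29% of promoters. JUND holds TGACGTCA at -200 (1.85% of promoters) and FOSL2 the AP-1 site TGACTCA at 5 after the start site (TGANTCA, 7.71% of promoters). These motifs do not overlap one another, and a match is a description of the letters only.

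JUN had the largest change of the family in both lines, and in opposite directions. In the sh-labelled RNAs it was 9.96-fold lower than in the Ctrl, and in pCMV-Hic-5 it was 4.59-fold higher than in its own Ctrl. In SKOV3 the log2 ratios were -2.84 and -3.66 in sh-S1, with the clone in Cy5 and in Cy3, and -3.05 and -3.71 in sh-S2. All 4 arrays were low, with the lower value of each clone on the array that held it in Cy3. The mean was -3.32 ± 0.09 (SD, n = 2 clones; limma SE 0.10, 95% interval -3.55 to -3.09; limma adjusted p = 3.76e-06). The SD and interval are of clone means over both dyes and leave out the gap between dyes. All 4 arrays read outside that interval. Among 24955 probes tested in SKOV3, JUN ranked 73 from the lowest. In A2780s the log2 ratios were 2.26 and 2.13, with a mean of 2.20, and JUN ranked 17 from the highest of 30529 probes. With 1 pair of RNAs in A2780s there was no test. A call there needed a mean of at least 1.5-fold and the same direction on both arrays, and in SKOV3 an adjusted p of at most 0.05 and at least 2-fold.

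The 10 spots of the JUN probe show how well each array measured it. Their log2 ratios ran from -3.48 to -2.43 and from -4.13 to -3.29 on the arrays of sh-S1, and from -3.27 to -2.80 and from -4.54 to -3.10 on those of sh-S2. No spot in SKOV3 came near 0. In A2780s the spots ran from 2.06 to 2.42 and from 2.01 to 2.24, with SDs of 0.10 and 0.09, against SDs of 0.15 to 0.52 in SKOV3. Spots of 1 array share an RNA and are not replicates.

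**Figure D1:**
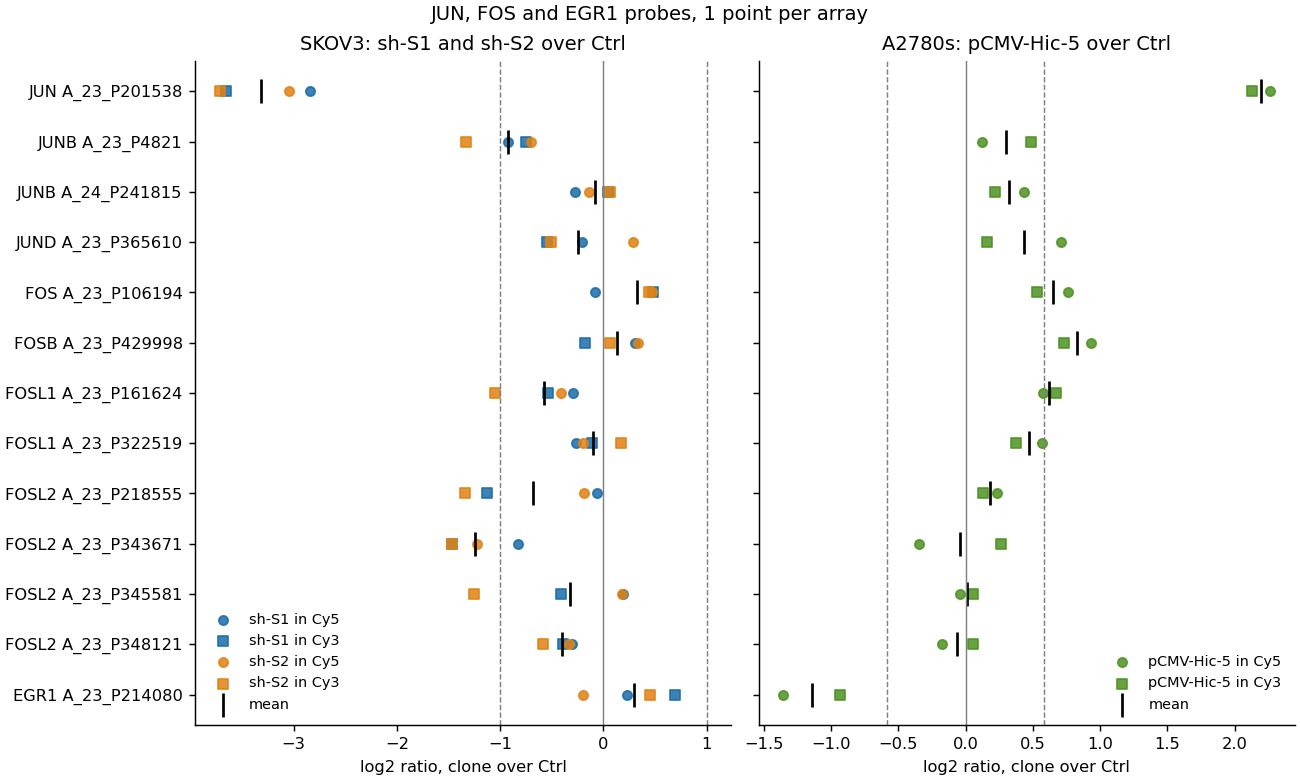
Log2 ratios of clone over Ctrl (x axis) for the 13 probes of the JUN, FOS and EGR1 genes (y axis) in SKOV3 (left) and A2780s (right). Points are arrays, with circles for the clone in Cy5 and squares for Cy3, black bars are means, and dashed lines mark 2-fold (left) and 1.5-fold (right). JUN lies apart at -3.32 in SKOV3 and 2.20 in A2780s, and EGR1 is the low probe of A2780s at -1.14.

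Among the 10 member probes tested in SKOV3, which read all 8 genes, 2 were called lower and 0 higher, beside 4.16% and 2.98% of all probes tested and 7.14% in either direction. The called probes were JUN and 1 FOSL2 probe. That FOSL2 probe and the FOSL1 probe entered through the Ctrl alone, and FOS through sh-S2 alone, so the filter took each of them where it was high. At any fold, 5 of the 10 had an adjusted p of at most 0.05 from limma, beside 31.8% of all probes. In A2780s, 11 member probes entered the rule, with 4 called higher and 1 lower, beside 3.26% and 1.32% of all probes and 4.58% in either direction. JUN, FOS, FOSB and FOSL1 were higher there and EGR1 was lower. The remaining probes, 3 in SKOV3 and 2 in A2780s, were too dim to enter.

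JUNB and JUND are the other JUN proteins, JUNB an inducible member often opposed to JUN and JUND the most evenly expressed. The JUNB probe A_23_P4821 had log2 ratios of -0.92 and -0.75 in sh-S1 and -0.70 and -1.33 in sh-S2. It was low on all 4 arrays. The mean of -0.93 ± 0.13 (SD, n = 2 clones; limma adjusted p = 0.000679) was short of the 2-fold limit by a small margin, and it passed on the arrays with the clone in Cy3 alone, at -1.04. In A2780s this probe read 0.12 and 0.49, and the coding probe A_24_P241815 read 0.43 and 0.22, neither of which reached 1.5-fold. In SKOV3 the coding probe was too dim to test, with ratios from -0.28 to 0.07. JUND read -0.20 and -0.55 in sh-S1 and 0.29 and -0.51 in sh-S2. Its arrays disagreed in direction, with a mean of -0.24 ± 0.19 (SD, n = 2 clones; limma adjusted p = 0.137). In A2780s JUND read 0.71 and 0.16 and was not called.

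FOS and FOSB, the FOS proteins with a strong transactivation domain, were called higher in pCMV-Hic-5 and did not pass in SKOV3. FOS read 0.76 and 0.53 in A2780s, a mean 1.57-fold higher, and FOSB 0.93 and 0.73, a mean 1.78-fold higher. FOSB reached 1.5-fold on both arrays and FOS on that with the clone in Cy5 only. In SKOV3, FOS read -0.08 and 0.48 in sh-S1 and 0.47 and 0.44 in sh-S2. Its mean was 0.33 ± 0.18 (SD, n = 2 clones; limma adjusted p = 0.0543), and it was well above background in only 2 of 4 Ctrl channels. With the processed signals, which the scanner software had itself corrected for background and normalized between dyes, the mean of FOS in SKOV3 was 1.34, a ratio over a Ctrl that was near background in Cy5. FOSB read 0.30, -0.18, 0.34 and 0.07 on the same arrays, with a mean of 0.13 ± 0.10 (SD, n = 2 clones; limma adjusted p = 0.371), and it turned to -0.06 on the arrays with the clone in Cy3.

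FOSL1 (FRA-1) and FOSL2 (FRA-2) lack that domain and are the FOS proteins usually found in invasive carcinoma cells. The FOSL1 probe A_23_P161624 read -0.30 and -0.54 in sh-S1 and -0.41 and -1.05 in sh-S2. It read low on all 4 arrays, with a mean of -0.57 ± 0.22 (SD, n = 2 clones; limma adjusted p = 0.00827), and fell short of 2-fold. The probe entered through the Ctrl, well above background in 4 of 4 channels, while each clone was so on 1 of its 2 arrays, and the processed signals gave -1.80. The size of this difference is therefore uncertain. In A2780s the probe read 0.58 and 0.67, a mean 1.54-fold higher, just inside the 1.5-fold limit. The call was lost when 1.5-fold was asked of each array, and with normexp background fitted on all spots the mean was 0.38. The leucine zipper probe of FOSL1 was too dim to enter in either line.

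The 4 probes of FOSL2 did not read alike in SKOV3. Probe A_23_P343671 read -0.82 and -1.47 in sh-S1 and -1.22 and -1.46 in sh-S2, a mean of -1.24 ± 0.14 (SD, n = 2 clones), and was called 2.37-fold lower (limma adjusted p = 0.000194). It was low on every SKOV3 array, while each clone was well above background on 1 of its 2 arrays, and the processed signals gave -3.43. It entered through the Ctrl alone, so its fold is uncertain. Probe A_23_P218555 averaged -0.68 ± 0.12 (SD, n = 2 clones; limma adjusted p = 0.00251), from -0.06 and -0.18 with the clone in Cy5 to -1.13 and -1.34 with it in Cy3. It was called lower with the processed signals, at -1.26, and on the Cy3 arrays alone, at -1.23, and read -0.12 on the Cy5 arrays alone. The coding probe A_23_P345581 averaged -0.32 ± 0.30 (SD, n = 2 clones; limma adjusted p = 0.0974), with ratios of 0.19 and 0.18 in Cy5 and -0.41 and -1.25 in Cy3. For both of these, the arrays with the clone in Cy5 and in Cy3 did not overlap. The remaining probe, A_23_P348121, was too dim to test, with a mean of -0.40. In A2780s the 3 FOSL2 probes that entered had means of -0.04, 0.01 and 0.18, and none was called.

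EGR1 was called lower in pCMV-Hic-5 and did not pass the test in SKOV3. In A2780s it read -1.35 and -0.93, low on both arrays, with a mean of -1.14 (2.21-fold lower). It ranked 19 from the lowest of the 30529 probes. In SKOV3 it read 0.23 and 0.69 in sh-S1 and -0.20 and 0.46 in sh-S2, with a mean of 0.29 ± 0.24 (SD, n = 2 clones; 95% interval 0.02 to 0.57; limma adjusted p = 0.0968). The SKOV3 ratios thus lay on both sides of 0. The interval, unlike the p-value, is not adjusted for the number of probes tested.

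Channel levels give the order of the 5 RNAs for a given probe. They were set on a common log2 scale after normalization of all channels, and the lines were on different slides, so that a slide and a line cannot be told apart. Overlap below is over channels of both dyes without pairing by array, unlike the ratios above, and does not replace them. JUN was at 13.8 in the SKOV3 Ctrl (13.5 to 14.0 over 4 channels), 10.5 in sh-S1 (9.94 to 11.1 over 2), 10.4 in sh-S2 (9.80 to 10.9), 9.62 in pCMV-Hic-5 (9.59 to 9.66) and 7.43 in the A2780s Ctrl (7.39 to 7.46). Only the neighbours sh-S1 and sh-S2 overlapped in that order, and JUN was well above background in every channel. The Ctrl RNAs differed by a log2 level of -6.33 for JUN, A2780s minus SKOV3, more than any clone differed from its own Ctrl.

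EGR1 had the opposite order of lines. It was at 12.2 in the A2780s Ctrl (11.9 to 12.4), 11.01 in pCMV-Hic-5, 9.42 in sh-S1 (9.10 to 9.74), 8.75 in the SKOV3 Ctrl (8.47 to 9.05) and 8.67 in sh-S2 (8.41 to 8.93). The SKOV3 Ctrl and sh-S2 overlapped, and the other neighbours did not. FOS was likewise higher in A2780s, at 10.9 in pCMV-Hic-5 and 10.3 in the Ctrl, against 7.84 in sh-S2, 7.73 in sh-S1 and 7.46 in the SKOV3 Ctrl. The FOS levels of the A2780s RNAs overlapped over their channels, and so did neighbours among the SKOV3 RNAs. FOSB was at 9.09 in pCMV-Hic-5, above the other RNAs, which ran from 7.96 to 8.26 and overlapped.

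FOSL2, FOSL1 by its brighter probe and JUNB by its brighter probe ran with JUN in having their highest level in the SKOV3 Ctrl. FOSL1 (A_23_P161624) was at 8.47 there, 7.96 in sh-S1, 7.92 in pCMV-Hic-5, 7.82 in sh-S2 and 7.30 in the A2780s Ctrl, and only the last was clear of its neighbour. FOSL2 (A_23_P343671) was at 9.24 in the SKOV3 Ctrl, 8.12 in sh-S1, 7.87 in sh-S2, 7.41 in the A2780s Ctrl and 7.37 in pCMV-Hic-5, with overlap between all neighbours. For both probes the Cy5 channels of sh-S1 and sh-S2 were not well above background. They read 8.48 and 8.26 for FOSL1, against 7.44 and 7.38 in Cy3. For FOSL2 they read 8.95 and 8.59, against 7.28 and 7.15 in Cy3, so these means and overlaps are uncertain. JUNB (A_23_P4821) ran from 12.1 in both sh-S1 and sh-S2 to 13.0 in the SKOV3 Ctrl, and JUND from 12.3 to 12.7. The dimmer probes differed in order. FOSL1 A_23_P322519 was at 7.04 in pCMV-Hic-5 and 6.84 in the SKOV3 Ctrl. JUNB A_24_P241815 was at 8.07 in the A2780s Ctrl and 7.43 in the SKOV3 Ctrl.

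**Figure D2:**
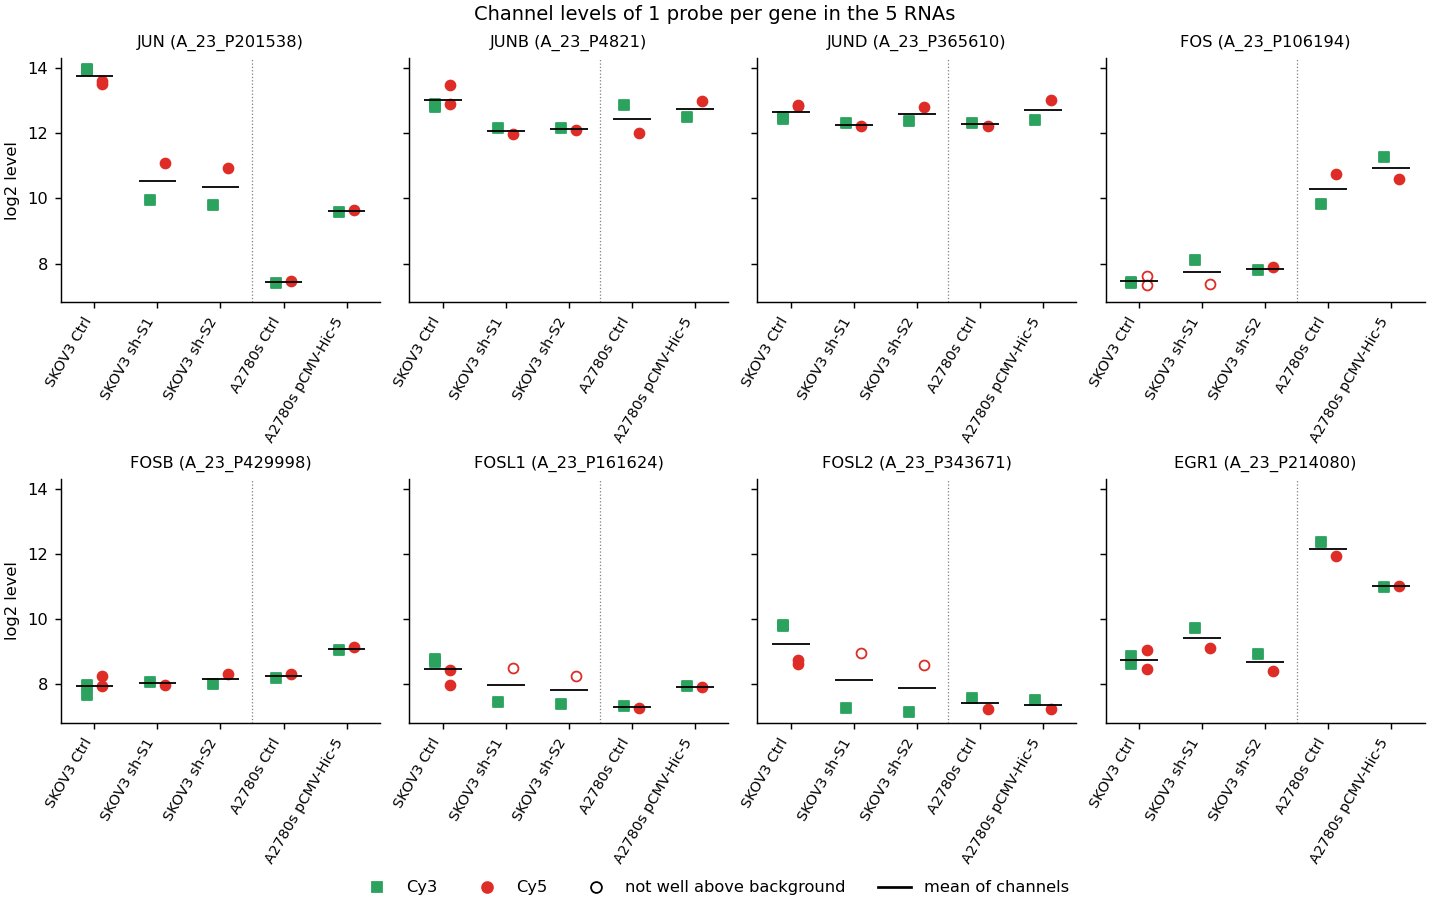
Log2 level after normalization of all channels (y axis) of 1 probe per gene in the 5 RNAs (x axis), with Cy3 as squares, Cy5 as circles, open symbols where the spot was not well above background, and bars for the mean. The dotted line parts the SKOV3 slide from the A2780s slide. JUN falls from 13.8 in the SKOV3 Ctrl to 7.43 in the A2780s Ctrl, and EGR1 and FOS stand higher in the A2780s RNAs.

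Genes around AP-1 were read in 5 lists, with the brightest probe that entered for each gene, beside a median log2 ratio of 0.00 over all probes in SKOV3 and -0.01 in A2780s. The lists count genes by their brightest probe, whereas the shares called beside them are over all probes that entered. Some genes, such as ATF3, EGR2, EGR3, FN1 and VEGFA, are in more than 1 list, so the lists are not separate counts. Other bZIP factors, which pair with JUN or FOS proteins or compete for their sites, were called higher in A2780s for several members. Of 15 measured there, 6 were called higher and 0 lower, with a median of 0.35, beside 3.26% and 1.32% of all probes called. ATF3, a stress-induced partner of JUN, was at 3.20 (3.24 and 3.16 on its arrays), DDIT3 (CHOP) at 2.91, MAFG at 1.53 and ATF4 at 1.48. ATF3, DDIT3 and ATF4 are known as genes of the amino acid and endoplasmic reticulum stress response. In SKOV3 0 of 15 were called higher and 1 lower, MAFG at -1.77, beside 2.98% and 4.16% of all probes called. The median was -0.01. ATF3 averaged -0.01, from 0.33 and -0.88 in sh-S1 and 0.86 and -0.33 in sh-S2. DDIT3 read -0.20 and 0.01 in sh-S1 but 1.20 and 1.77 in sh-S2. ATF4 read 0.63 and -0.45 in sh-S1 and 1.63 and 0.34 in sh-S2. The clones thus did not read alike for these genes, and none of them was called.

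A list of MAP kinases and the kinases above and below them, the ternary complex factors ELK1, ELK3 and ELK4, SRF with its coactivators, and GSK3B and FBXW7, which act on the turnover of JUN, was read in both lines. In SKOV3, 2 of 22 measured were called higher and 1 lower, with a median of 0.01, beside 7.14% of all probes called. These were MAP2K6 at 2.15 and MAPK11 at 1.17, both of the p38 arm, and ELK4 at -1.45. In A2780s 0 of 26 were called higher and 2 lower, MAP2K3 at -0.90 and MAP2K4 at -0.60, with a median of -0.14, beside 4.58% of all probes called. Neither call held with the clone in Cy3 only or with 1.5-fold on each array, and 5 genes were called lower with Cy5 only.

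Immediate early genes other than the members were mostly called lower where called in SKOV3 and were split in A2780s. In SKOV3, 9 of 25 measured were called lower and 1 higher, with a median of -0.74, beside 4.16% and 2.98% of all probes called. IER3 was at -3.51, PHLDA1 at -2.88 (well above background in 3 of 4 clone channels), DUSP1 at -2.31 and GADD45B at -2.09. DUSP6, the phosphatase of ERK, went the other way at 3.50. In A2780s, 12 of 33 were called higher and 4 lower, with a median of 0.22, beside 3.26% and 1.32% of all probes called. ATF3 was at 3.20, the MAP kinase phosphatase DUSP1 at 1.55, the mRNA decay factor ZFP36 at 1.24 and GADD45B at 1.02. CCN1 at -1.49, CCN2 at -1.26, PHLDA1 at -0.97 and EGR2 at -0.91 were lower there, together with EGR1.

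Known AP-1 target genes held more calls of lower than of higher levels in the sh-labelled RNAs. Of 26 measured, 11 were called lower and 1 higher, with a median of -0.75, beside 4.16% and 2.98% of all probes called. The metallothionein MT2A was at -4.61, SPP1 (osteopontin) at -4.29, the hyaluronan receptor CD44 at -3.73 and the keratin KRT18 at -3.53, whereas TIMP1, an inhibitor of metalloproteinases, was at 1.88. KRT18 is also in the list of carcinoma-line markers, whose summed level was lower in the same RNAs. In A2780s, 4 of 26 were called higher and 3 lower, with a median of -0.09, beside 3.26% and 1.32% of all probes called. The higher count was 2 with normexp fitted on all spots and also with the mean over the probes of a gene. The heme oxygenase HMOX1 was at 2.57, VEGFA at 0.80, HBEGF at 0.77 and KRT18 at 0.59, and the metalloproteinases MMP3 and MMP10 at -2.19 and -2.07 and SPP1 at -1.94. MMP3 and MMP10 were thus lower in the RNA in which JUN was higher.

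Partners and targets of EGR1 held 3 genes called lower and 1 higher of 13 in SKOV3, beside 4.16% and 2.98% of all probes called. Their median was -0.04. FN1 (fibronectin) was at -3.33, THBS1 at -3.04, the tissue factor gene F3 at -2.78 and GDF15 at 1.60. In A2780s, 3 of 13 were called higher and 1 lower, with a median of -0.02, beside 3.26% and 1.32% of all probes called. GDF15 was at 2.02, VEGFA at 0.80, EGR3 at 0.69 and EGR2 at -0.91.

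**Figure D3:**
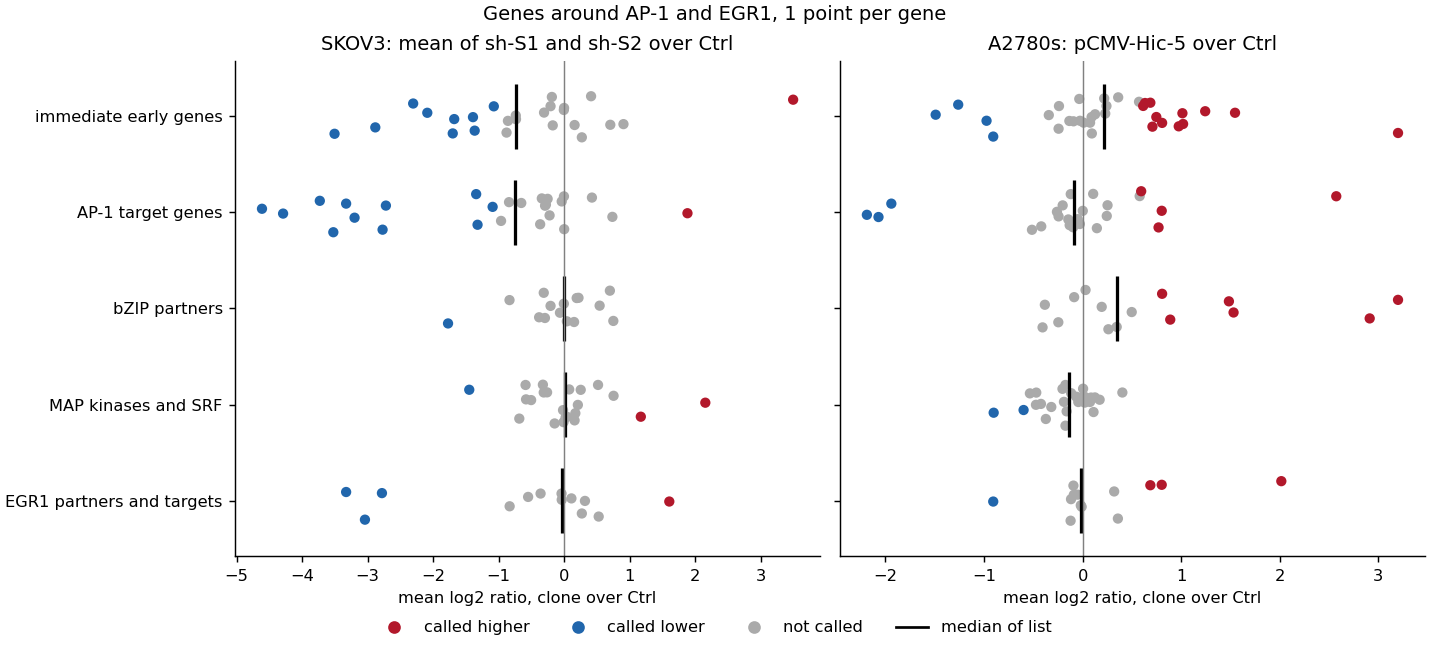
Mean log2 ratio of clone over Ctrl (x axis) of the genes in 5 lists around AP-1 and EGR1 (y axis) in SKOV3 (left) and A2780s (right), 1 point per gene with scatter added vertically. Red and blue points were called higher and lower, grey points were not called, and black bars are list medians. The medians of immediate early genes and AP-1 target genes lie at -0.74 and -0.75 in SKOV3 and at 0.22 and -0.09 in A2780s.

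The genes most like JUN were found by Euclidean distance over the 6 log2 ratios among 18025 genes that entered in both lines. The cystine transporter gene SLC7A11 was nearest, at a distance of 1.98, with means of -2.42 in SKOV3 and 2.65 in A2780s. MICAL2 was next at 2.06, with -2.87 and 0.96. The following one was the probe A_24_P161733 at 2.15, with -3.13 and 0.76. All 3 were lower in SKOV3 and higher in A2780s, as the ratios that chose them require.

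**Figure D4:**
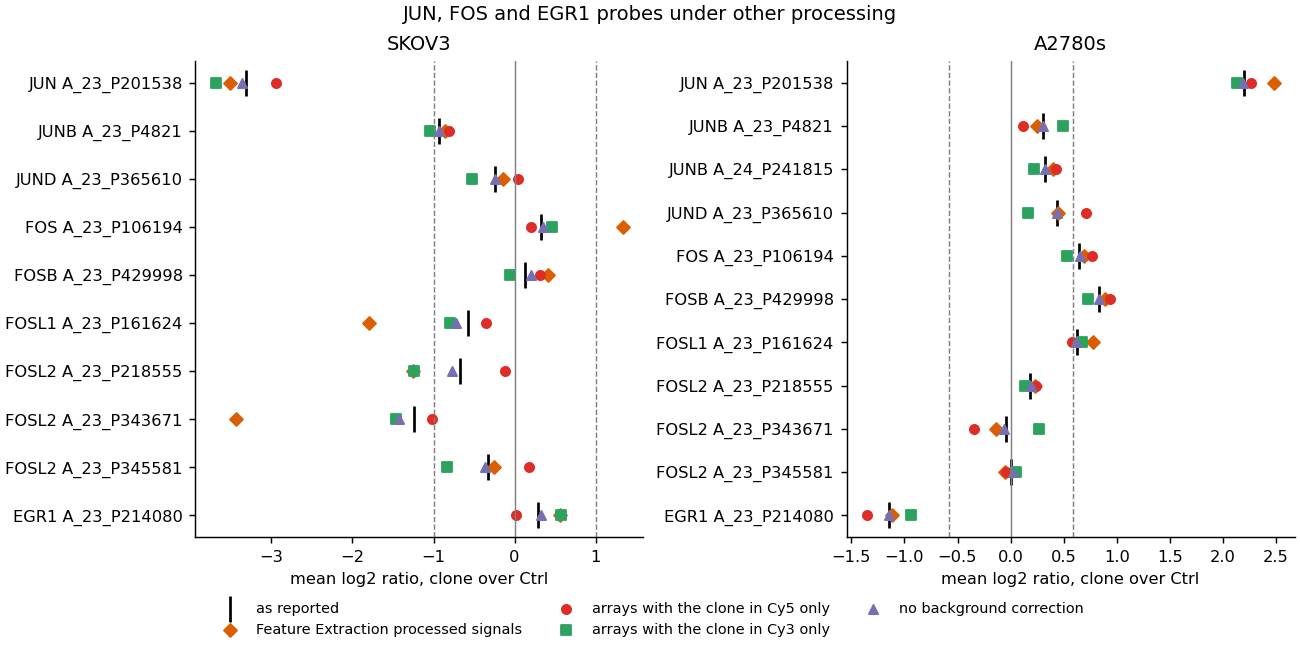
Mean log2 ratio of clone over Ctrl (x axis) of the member probes that entered (y axis) in SKOV3 (left) and A2780s (right), as reported (bars), with the processed signals of the scanner software, with the clone in Cy5 or in Cy3 only, and with no background correction. Dashed lines mark 2-fold and 1.5-fold. JUN ran from -3.69 to -2.94 in SKOV3 and stayed above 2 in A2780s under these settings, while FOS, FOSL1 and FOSL2 moved most in SKOV3 with processed signals.

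The processing mattered most for the dim probes of SKOV3, as the plot of ratios by processing shows. The Cy5 signal of the SKOV3 arrays was weak, with a median net signal of 9.52 to 25.5 against 373 to 530 in Cy3, and 43.7% to 63.6% of spots well above background in Cy5 against 88.8% to 94.5% in Cy3. On the A2780s arrays the medians were 325 and 369 in Cy3 and 568 and 441 in Cy5. The number of arrays and this signal limit the precision of the ratios above.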

How the data were processed

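The authors deposited, per the labels and file headers, Agilent Feature Extraction output with mean spot intensity and median background intensity in Cy3 and Cy5, processed intensity, and log10 ratios of Cy5 over Cy3 in the scanner files and the series values. Feature Extraction is 8.5.1.1 in the submitters' processing notes and 10.7.3.1 in the file headers. Their normalization and test are not given in the sources used here.

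The 45015 spots of an array, 1639 of them controls, hold 41000 probes. Intensities were background-corrected with normexp (offset 50) in limma 3.58.1 (R 4.3.3, with data.table at version 1.17.8), fitted on spots without background flags and with local background up to 1000, and normalized by loess within arrays. Control and outlier-flagged spots (121 to 362 per array) were left out, spots of a probe were averaged and ratios were turned to clone over Ctrl. Levels were taken after loess and Aquantile. A probe entered if all arrays of its line showed the Ctrl well above background, or both arrays of a clone did so for the clone, and if every array gave a value. SKOV3 clone means were tested against 0 with lmFit and eBayes and Benjamini-Hochberg adjustment over 24955 probes. The Ctrl was a single RNA, whose own spread is not in the test. The p-values rest on the spread between these 2 clones, which eBayes moderated towards that of all tested probes (5.59 prior degrees of freedom). The dye-swapped arrays were averaged first, so a gap between dyes is not in the SDs, intervals or p-values. A2780s had no test. Both calling rules were run on simulated data with known changes to check the code. Directions came from the dye labels. SKOV3 arrays shared 1 slide and scan and A2780s arrays another. Dye-swapped ratios correlated across probes with r = 0.610 (sh-S1), 0.606 (sh-S2) and 0.490 (pCMV-Hic-5). The members, gene lists and tests were chosen with earlier results of these data known. Named are all member probes, TGFB1I1, up to 4 called genes per list, line and direction with the largest mean ratio, and the 3 genes nearest to JUN.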

Additional observations from a re-analysis of the deposited data

Results flagged for a closer look

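In 4 of the 13 member probes every SKOV3 array read lower and both A2780s arrays read higher, at any size of ratio. The share of all probes with this pattern was not counted, and the difference between the lines was not tested. JUN had mean log2 ratios of -3.32 in SKOV3 and 2.20 in A2780s. The JUNB probe A_23_P4821 had -0.93 and 0.30, the FOSL1 probe A_23_P161624 -0.57 and 0.62, and the FOSL2 probe A_23_P218555 -0.68 and 0.18. Of these, only JUN was called in both lines. Lines were on different slides, and TGFB1I1 was not lower in sh-S1 or sh-S2.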

How the results depend on the processing

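JUN kept its direction under all 9 alternatives in SKOV3, from -3.69 to -2.94, and its call wherever there was a test. In A2780s it kept both under 7, from 1.69 to 2.48, as EGR1 did, from -1.35 to -0.93. In SKOV3, 743 probes were called higher and 1038 lower. With processed signals these were 1971 and 2355, and with the deposited log10 ratios 1963 and 2353. The arrays with the clone in Cy3 only gave 1219 higher. The member probes called in SKOV3 went from 2 to 5 with processed signals, 5 with deposited ratios and 4 with Cy3 only. In A2780s, 994 probes were called higher and 403 lower. With Cy5 only there were 1795 and 1516, with 1.5-fold on each array 495 and 123, and processed signals gave 693 lower and Cy3 only 210. The member probes called went from 5 to 3 with 1.5-fold on each array, where FOS and FOSL1 were lost. Signs turned in SKOV3 for JUND with Cy5 only (0.042), FOSB with Cy3 only (-0.055), FOSL2 A_23_P345581 with Cy5 only (0.18), and TGFB1I1 with Cy5 only (-0.14) and without sh-S2 (-0.021, against 0.083 without sh-S1). The cause was not tested. Leaving out 1 clone leaves fold and direction with no test, and without sh-S1 JUNB reached 2-fold, at -1.02. Ratios are paired by array already. The weak Cy5 signal limits dim probes in SKOV3.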
